A study of Oniscidea with 6 samples.

Results

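The calcium store genes described here are the 10 mouse symbols of the sarco/endoplasmic reticulum calcium pumps (SERCA: Atp2a1, Atp2a2 and Atp2a3), the ryanodine receptors (Ryr1, Ryr2 and Ryr3), the inositol trisphosphate (IP3) receptors (Itpr1, Itpr2 and Itpr3) and the kinase Camk2d. They were chosen by symbol, and all 10 were rows of the deposited table of 24421 genes. The samples were woodlice (Oniscidea, terrestrial isopod crustaceans), with 3 samples labelled rolling and 3 labelled stretching. Polyadenylated RNA was extracted from fresh tissue with Trizol, and all 6 samples are labelled as untreated. The labels name no species, tissue, sex or age, and do not say if replicates were separate animals. The p-values therefore reflect only how the 3 samples of a group vary, and that variation may be technical.

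In animal cells, calcium is stored in the endoplasmic reticulum, called sarcoplasmic reticulum in muscle. Ryanodine and IP3 receptors are channels that let it out into the cytosol, where it starts contraction and other responses. SERCA pumps return it to the store, and Camk2d is a kinase that is switched on by calcium bound to calmodulin. Vertebrates carry several genes for each of the pumps and channels, whereas Drosophila, an arthropod, has a single SERCA gene, a single ryanodine receptor gene and a single IP3 receptor gene. A mouse symbol in these data is only the name under which reads were counted. The sources used here do not say how reads that match more than one mouse gene of a family were assigned, so the split of reads among the close relatives within a family is uncertain, and its part in the results was not tested.

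Reads counted on listed genes numbered 539367, 416821 and 1122154 in rolling 1 to 3, and 456331, 403971 and 544157 in stretching 1 to 3. The ribosomal RNA gene Rn45s took 4.65%, 12.97% and 34.7% of these reads in rolling 1 to 3 and 1.17% to 7.30% in stretching, Lars2 took 26.0% in stretching 3 and at most 5.53% elsewhere, and the 20 genes with the highest mean took 79.5% in rolling 3 and 40.1% to 67.2% elsewhere. All levels are normalised read counts, that is, reads divided by the authors' size factor of the library, and in these units a single read is worth between 0.527 and 1.22. Differences were tested for the 2948 genes with a mean level of at least 10 over the 6 libraries, with limma on log2(value + 1), Benjamini-Hochberg adjustment over all 2948 and a threshold of 0.05. Of all tested genes, 75.2% passed, 37.8% as higher and 37.4% as lower in rolling, so a call by itself does not set a gene apart here. Of the 10 genes, 7 were tested, 2 had reads but a mean under 10, and Atp2a3 had no read in any library. Among the 7, 4 were higher in rolling, 1 was lower and 2 did not pass, a share near that of all tested genes. Their median log2 fold change was 1.35, against 0.10 for all tested genes. Groups did not overlap for 6 of the 7, and for 78.7% of all tested genes.

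**Figure D1:**
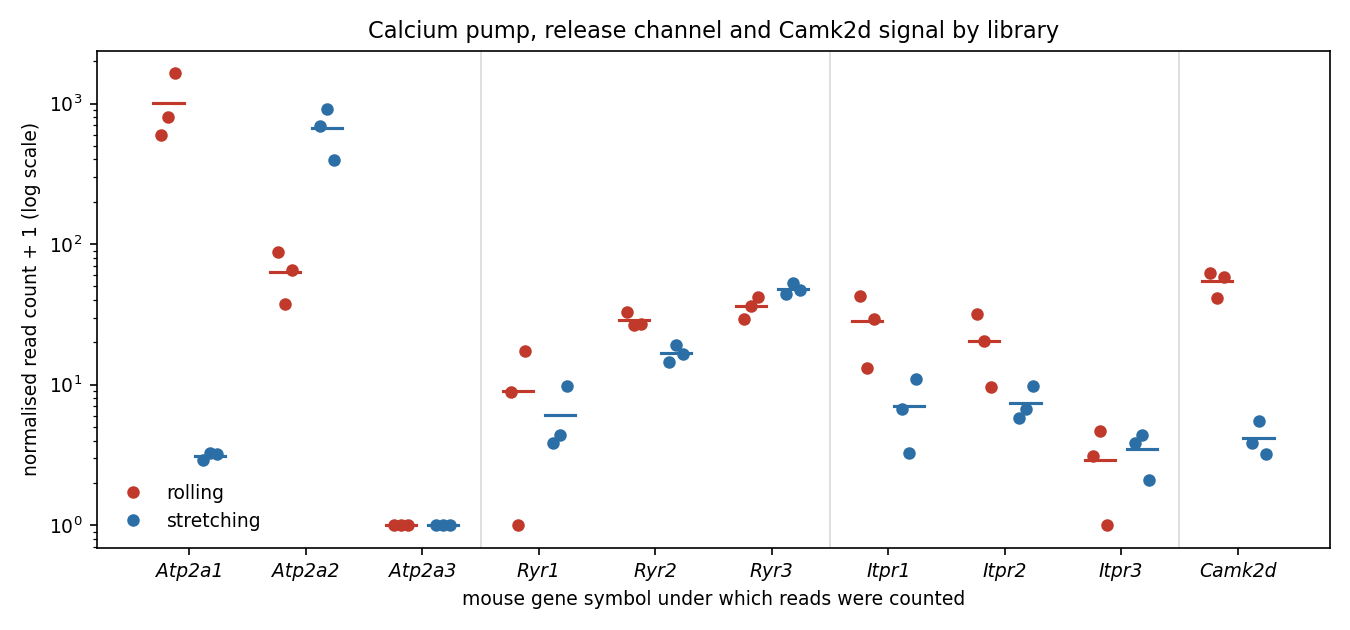
Normalised read count plus 1 (log axis) of the 10 genes in each library, with rolling in red and stretching in blue. Points are libraries and bars are the means of 3. Atp2a1 stands at 595 to 1639 in rolling and about 2 in stretching, and Atp2a2 lies the other way round. The groups lie close for Ryr2 and Ryr3, though without overlap, and Ryr1 ranges from 0 to 16.3 in rolling.

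The largest fold change among the 10 genes lay within the SERCA pumps, where rolling and stretching libraries held their reads under different symbols. Atp2a1 (Entrez Gene 11937), in mouse the pump of fast skeletal muscle, stood at 595, 806 and 1639 in rolling 1 to 3, against 1.92, 2.26 and 2.22 in stretching 1 to 3. Every rolling library was high, and each stretching library held 2 reads. The means were 1013 ± 552 in rolling and 2.13 ± 0.188 in stretching libraries (SD, n = 3 each), and the log2 fold change was 8.21 (SE 0.42; adjusted p 7.2e-07 by limma). Over the groups, 3295 reads in rolling stood against 6 in stretching, a depth-adjusted ratio of 428 (95% counting interval 196 to 1166). A larger absolute log2 fold change than that of Atp2a1 was seen in 2.04% of the 2948 tested genes.

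Atp2a2 (Entrez Gene 11938), in mouse the pump of heart and slow muscle and, as a second isoform, of most other cells, stood at 87.0, 36.7 and 64.1 in rolling, against 693, 910 and 394 in stretching. All 3 rolling libraries lay below all 3 stretching libraries. The means were 62.6 ± 25.2 in rolling and 666 ± 259 in stretching libraries (SD, n = 3 each), and the log2 fold change was -3.39 (SE 0.46; adjusted p 0.00013 by limma), with 254 reads against 1883. Unlike Atp2a1, this gene kept a measurable level in both groups, and 41.7% of tested genes had a larger absolute change. Atp2a3 (Entrez Gene 53313), in mouse the pump of platelets and other non-muscle cells, is listed at 0 in all 6 libraries. A count of 0 allows up to 3 reads, or 1.58, 3.67 and 3.26 in rolling 1 to 3 and 2.87, 3.40 and 3.32 in stretching 1 to 3.

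Summed over the family, the SERCA level was 682, 842 and 1703 in rolling and 695, 913 and 397 in stretching. Groups overlapped, and the means of 1076 ± 549 in rolling and 668 ± 259 in stretching libraries (SD, n = 3 each) differed by 0.65 on the log2 scale (SE 0.53; exact two-sided permutation p 0.5), or by 0.26 without rolling 3 and 0.32 without stretching 3. The difference in the sum was thus within the spread between libraries, while the difference in its makeup was not. Atp2a1 held 87.2% of the SERCA reads in rolling 1 (95% Clopper-Pearson interval 85.3 to 89.0), 95.6% in rolling 2 (93.8 to 97.0) and 96.2% in rolling 3 (95.2 to 97.1). In stretching it held 0.276% (0.0334 to 0.993), 0.248% (0.0301 to 0.893) and 0.559% (0.0677 to 2.0) in libraries 1 to 3. The mean shares of 93.0% ± 5.03 in rolling and 0.361% ± 0.172 in stretching libraries (SD, n = 3 each) differed by 92.7 percentage points (SE 2.90; exact two-sided permutation p 0.1, the smallest that 3 against 3 allows). A share within a library does not depend on how libraries are scaled to each other. It is a share of reads and not of molecules, since it was not corrected for gene length, and these intervals cover counting error only.

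**Figure D2:**
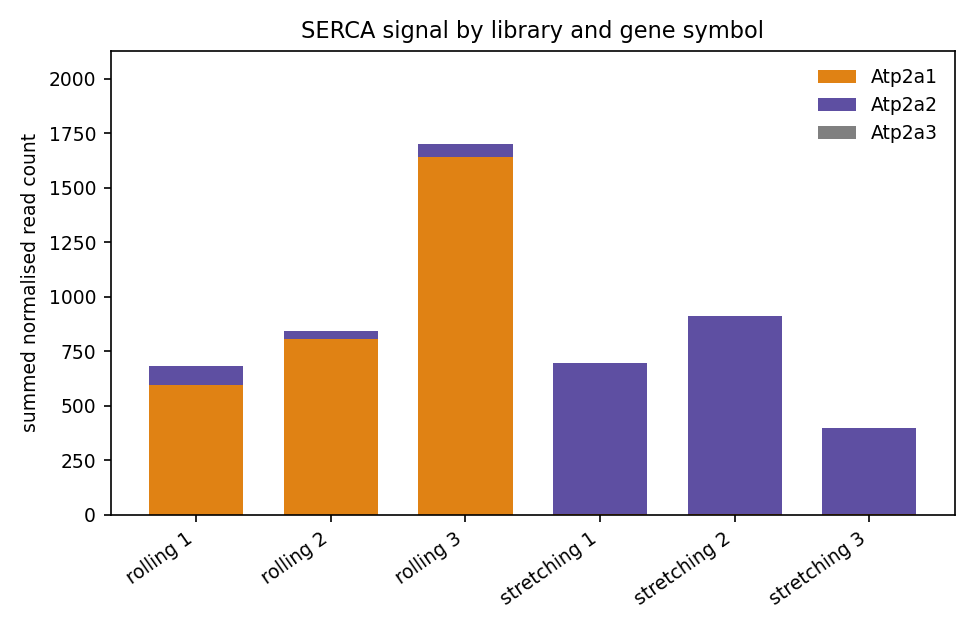
Stacked normalised read counts (linear axis) of Atp2a1 (orange), Atp2a2 (purple) and Atp2a3 (grey, at 0 throughout) in each library, rolling at the left and stretching at the right. The total ranges from 682 to 1703 in rolling and from 397 to 913 in stretching, while the colour changes from nearly all Atp2a1 to nearly all Atp2a2.

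Ryr2 and Ryr3 had the smallest fold changes of the 7 tested genes, and neither passed the test. Ryr3 (Entrez Gene 20192), in mouse found in brain and several other tissues, stood at 28.5, 35.5 and 41.3 in rolling, against 43.1, 52.1 and 46.5 in stretching. The groups did not overlap but lay close, with means of 35.1 ± 6.43 in rolling and 47.2 ± 4.52 in stretching libraries (SD, n = 3 each). The log2 fold change was -0.43 (SE 0.33; 95% confidence interval -1.18 to 0.32; adjusted p 0.26 by limma), and 90.1% of tested genes had a larger absolute change.

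Ryr2 (Entrez Gene 20191), in mouse the release channel of the heart, stood at 31.6, 25.7 and 26.1 in rolling, against 13.4, 18.1 and 15.5 in stretching. Here the rolling libraries were the higher ones, again without overlap, at 27.8 ± 3.31 in rolling and 15.7 ± 2.36 in stretching libraries (SD, n = 3 each). The log2 fold change of 0.79 (SE 0.35; 95% confidence interval 0.01 to 1.58) missed the threshold (limma adjusted p 0.063). It passed in 1 of 17 settings, with a pseudocount of 8 (limma adjusted p 0.034). Scaled to library totals, its limma adjusted p was 0.48. Ryr1 (Entrez Gene 20190), in mouse the release channel of skeletal muscle, was too low for the test, with 7.91, 0 and 16.3 in rolling and 2.87, 3.40 and 8.86 in stretching. It rested on 30 reads in rolling and 14 in stretching, a depth-adjusted ratio of 1.67 (95% counting interval 0.858 to 3.41), which includes 1.

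The ryanodine receptor sum was 68.0, 61.2 and 83.7 in rolling and 59.4, 73.6 and 70.9 in stretching. It averaged 71.0 ± 11.5 in rolling and 68.0 ± 7.54 in stretching libraries (SD, n = 3 each), a log2 difference of 0.06 (SE 0.16; exact two-sided permutation p 0.9), which was below 0 after TMM or library-total scaling and when rolling 3 or stretching 1 was left out. Ryr3 held 41.9%, 58.0% and 49.4% of the ryanodine receptor reads in rolling 1 to 3, against 72.6%, 70.8% and 65.6% in stretching 1 to 3. The groups did not overlap, and the mean shares were 49.7% ± 8.08 in rolling and 69.7% ± 3.61 in stretching libraries (SD, n = 3 each; exact two-sided permutation p 0.1, the smallest possible). This share was looked up after the values of the genes were seen, and with 50 to 129 reads per library its 95% Clopper-Pearson intervals are wide, 43.2 to 71.8 in rolling 2 and 52.7 to 77.1 in stretching 3.

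The IP3 receptor genes Itpr1 and Itpr2 were called higher in rolling, both at low levels. Itpr1 (Entrez Gene 16438), in mouse the main IP3 receptor of neurons, stood at 41.6, 12.2 and 28.3 in rolling, against 5.75, 2.26 and 9.97 in stretching. All rolling libraries were above all stretching libraries, and the means were 27.4 ± 14.7 in rolling and 5.99 ± 3.86 in stretching libraries (SD, n = 3 each). The log2 fold change was 2.03 (SE 0.60; 95% confidence interval 0.68 to 3.38; adjusted p 0.012 by limma). The call was lost without rolling 1 (limma adjusted p 0.059) and without stretching 2 (0.055).

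Itpr2 (Entrez Gene 16439), in mouse an IP3 receptor of liver, heart and glia, stood at 30.6, 19.6 and 8.69 in rolling, against 4.79, 5.66 and 8.86 in stretching. Rolling 3 lay just under stretching 3, so the groups overlapped. The log2 fold change was 1.35 (SE 0.52; adjusted p 0.039 by limma), and the call was lost in 9 of 16 other settings, with adjusted p 0.14, 0.10, 0.12 and 0.10 without rolling 1, rolling 2, stretching 1 and stretching 2. Itpr3 (Entrez Gene 16440), in mouse found in epithelial and secretory cells, had 7 reads in each group and was not tested, and its depth-adjusted ratio was 0.779 (95% counting interval 0.233 to 2.60).

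Summed, the IP3 receptors stood at 74.3, 35.5 and 37.0 in rolling, against 13.4, 11.3 and 19.9 in stretching. Every rolling library was above every stretching library, at 48.9 ± 22.0 in rolling and 14.9 ± 4.50 in stretching libraries (SD, n = 3 each), a log2 difference of 1.60 (SE 0.41; exact two-sided permutation p 0.1, the smallest possible). Scaled to library totals the groups overlapped (log2 difference 1.44, exact p 0.3), since rolling 3 held 0.00303% of its reads on this family, against 0.00307% in stretching 1 and 0.00331% in stretching 3. With 29 to 141 reads per library in rolling and 10 to 18 in stretching, the makeup of this family was poorly measured. Itpr1 held 56.0%, 34.5% and 76.5% of its reads in rolling, against 42.9%, 20% and 50.0% in stretching, which overlap.

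**Figure D3:**
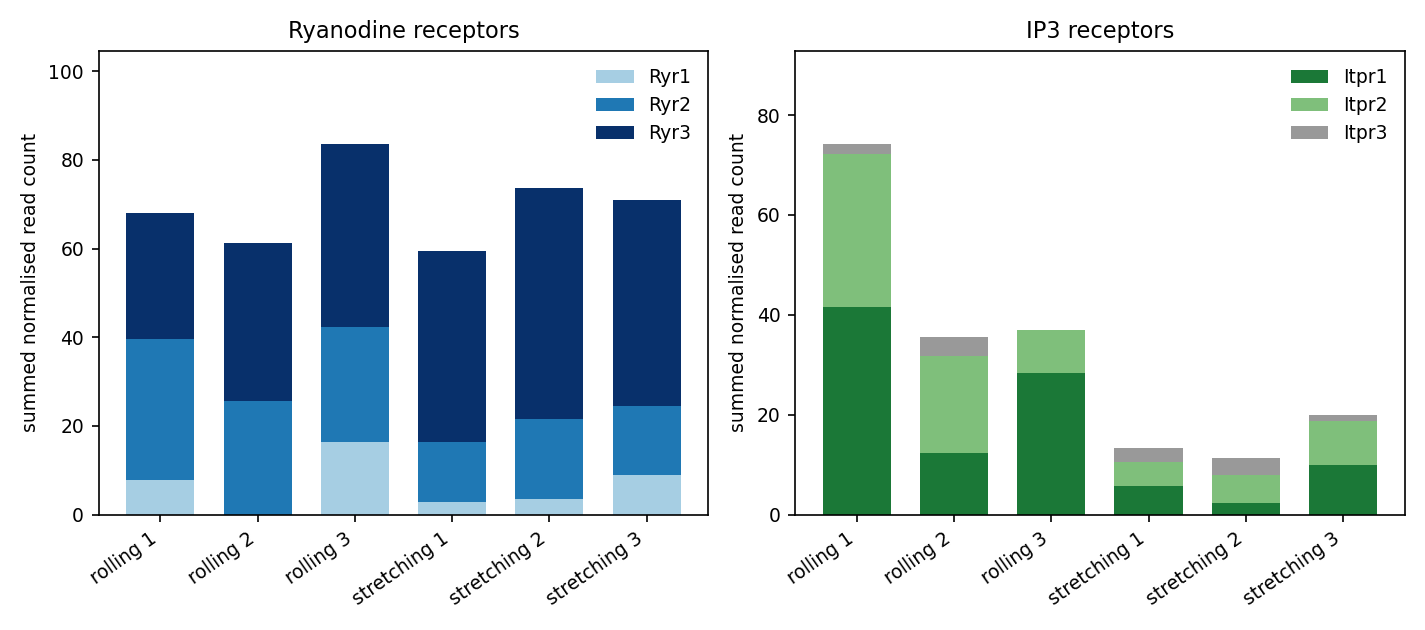
Stacked normalised read counts (linear axes) of the ryanodine receptors (left, blue shades) and IP3 receptors (right, green shades and grey) in each library. The ryanodine receptor total lies between 59.4 and 83.7 in all libraries, while the IP3 receptor total is 35.5 to 74.3 in rolling and 11.3 to 19.9 in stretching.

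Camk2d (Entrez Gene 108058), in mouse the main calcium/calmodulin-dependent kinase II of the heart and a kinase that acts on ryanodine receptors and on the SERCA regulator phospholamban, stood at 61.7, 40.4 and 57.6 in rolling, against 2.87, 4.53 and 2.22 in stretching. The rolling libraries were all high and the stretching libraries rested on 2 to 4 reads each. The means were 53.2 ± 11.3 in rolling and 3.21 ± 1.19 in stretching libraries (SD, n = 3 each), and the log2 fold change was 3.70 (SE 0.40; adjusted p 3.1e-05 by limma). The 203 reads in rolling against 9 in stretching gave a depth-adjusted ratio of 17.6 (95% counting interval 9.07 to 39.0). Its paralogues had few reads in both groups, with 0 reads in rolling and 7 in stretching for Camk2a, 6 and 10 for Camk2b, and none for Camk2g.

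**Figure D4:**
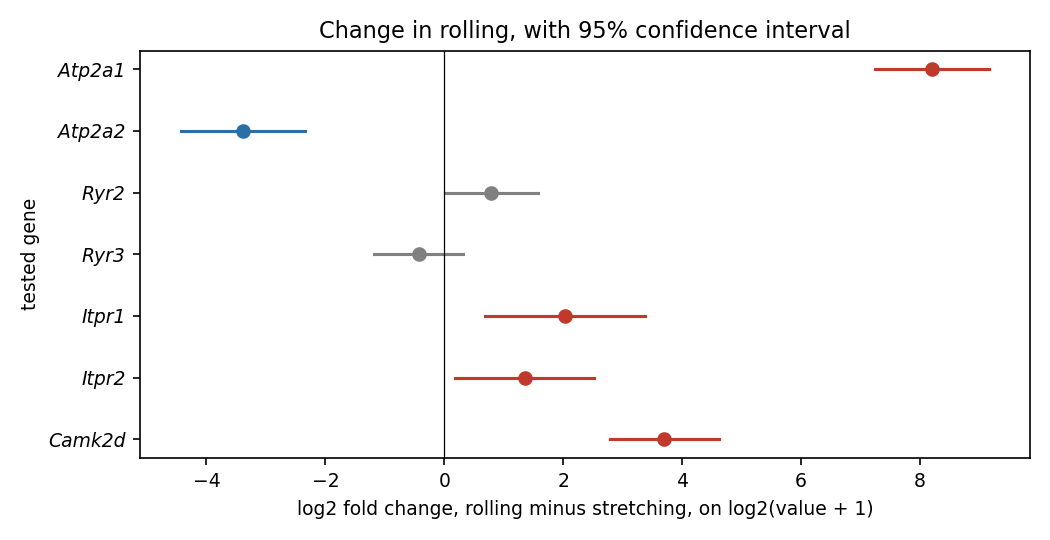
Log2 fold change (rolling minus stretching, from log2 of the value plus 1) for the 7 tested genes, with 95% confidence intervals from limma. Red marks genes called higher, blue lower and grey not past the threshold. Atp2a1 at 8.21 and Atp2a2 at -3.39 lie on opposite sides, and the intervals of Atp2a1 and Camk2d lie above those of both ryanodine receptors.

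In the authors' deposited table, Atp2a1, Atp2a2, Itpr1 and Camk2d also passed an adjusted p of 0.05, as did 37.2% of all genes with an adjusted p there. Itpr2 did not (adjusted p 0.084), nor did the 3 ryanodine receptors, with adjusted p 0.66, 0.23 and 0.47 for Ryr1, Ryr2 and Ryr3, or Itpr3, with 0.87.

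The profiles over the 6 libraries were then compared between genes, as the root-mean-square difference of log2(value + 1) centred on each gene's mean, against 2749 other tested genes. Closest to Atp2a1 were Rbm5 at 0.30, Zfat at 0.32 and Obox5 at 0.33, all 3 without a read in stretching. Among the closest to Atp2a2 were Slc16a1 at 0.25 and Nup155 at 0.25, and closest to Camk2d were Ddx50 at 0.17, Ebf1 at 0.25 and Myo1f at 0.25. None of these is a gene of the calcium lists.

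Other genes of calcium handling were taken from a list of 147 symbols in 7 roles, of which 48 reached the level for testing. Of these, 15 were higher and 12 lower in rolling and 21 did not pass, so that 27 of 48 were called, against 75.2% of all tested genes. Their median log2 fold change was -0.0013, against 0.10 for all tested genes. Groups did not overlap for 31 of the 48, against 78.7% of all tested genes.

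Among the transporters that move calcium out of the cell or into other organelles, 2 of 8 tested genes were higher and 4 lower. For all tested genes these shares were 37.8% and 37.4%. Atp2b2, a calcium pump of the plasma membrane, rose, with 99.1, 31.8 and 85.9 in rolling against 5.75, 7.93 and 5.54 in stretching (log2 fold change 3.17, SE 0.48; adjusted p 0.00028 by limma). Its relative Atp2b1 stood at 60.9 ± 4.03 in rolling and 29.3 ± 5.52 in stretching libraries (SD, n = 3 each; log2 fold change 1.05; adjusted p 0.017 by limma), a call lost by 4 other settings and without stretching 1 (adjusted p 0.055). Slc8a2, a sodium/calcium exchanger, had no read in rolling and 62 in stretching, which makes it at least 26.5-fold lower, with the 0 in rolling replaced by a floor of 3 reads for the 3 libraries together. Slc24a1, an exchanger that also uses potassium, stood at 2.41 ± 1.30 in rolling and at 51.7, 553 and 22.2 in stretching 1 to 3, with a log2 fold change of -4.76 that was -3.43 without stretching 2 and -5.72 without stretching 3.

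Both tested genes of store-operated entry, by which an emptied store is refilled from outside, were lower in rolling, as were 37.4% of all tested genes. Stim2, a sensor of store calcium, stood at 1.43 ± 1.24 in rolling and 35.3 ± 24.6 in stretching libraries (SD, n = 3 each). Its log2 fold change was -3.82 (SE 0.67; adjusted p 0.00068 by limma). With 1 library left out it ranged from -4.41, without stretching 2, to -3.27, without rolling 2. Saraf, which turns such entry off, had no read in rolling against 162 in stretching, at least 69.4-fold lower.

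Of 11 tested store proteins and regulators, 1 rose, 2 fell and 8 did not pass. In all tested genes 37.8% rose and 37.4% fell. Triadin, Trdn, which binds the ryanodine receptor in mouse muscle, stood at 9.49, 7.35 and 12.0 in rolling, against 374, 334 and 415 in stretching. Its rolling libraries were all far below those of stretching, with a log2 fold change of -5.16 (SE 0.34; adjusted p 2.1e-06 by limma). Sarcalumenin, Srl, a calcium-binding protein of the muscle store, was higher in rolling, at 85.5 ± 49.3 against 15.5 ± 9.40 in stretching libraries (SD, n = 3 each; log2 fold change 2.42; adjusted p 0.0031 by limma). The store chaperone Hspa5 stood at 312 ± 85.9 in rolling and 301 ± 28.5 in stretching libraries (SD, n = 3 each; adjusted p 0.97 by limma).

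Voltage sensors, the channels that couple a change in membrane voltage to calcium entry or release, were higher in 3 of 6 tested cases and lower in none. Among all tested genes 37.8% were higher and 37.4% lower, and 6 genes are too few to set this role apart. Cacna1s, in mouse the sensor that opens the ryanodine receptor of skeletal muscle, stood at 71.2, 44.1 and 48.9 in rolling, against 1.92, 3.40 and 8.86 in stretching (log2 fold change 3.44, SE 0.51; adjusted p 0.00022 by limma). The auxiliary subunit Cacna2d1 rose by 2.57 on the log2 scale (SE 0.47; adjusted p 0.00081 by limma), while Cacna1d, at 56.0 ± 21.7 in rolling and 39.9 ± 7.44 in stretching libraries (SD, n = 3 each), did not pass (limma adjusted p 0.36).

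In the list around IP3 production, 3 of 7 tested genes were higher in rolling and none lower, beside 37.8% and 37.4% of all tested genes. Plcd3, a phospholipase that makes IP3, rose by 5.65 on the log2 scale (SE 0.64), and by 4.98 without stretching 3, and Gna14, a G protein alpha subunit that activates phospholipase C, rose by 5.18 (SE 0.52). Plcl2, related to these phospholipases but without their enzyme activity, had 3813 reads in rolling against 2 in stretching, a depth-adjusted ratio of 1484 (95% counting interval 411 to 12261). The only tested gene of mitochondrial uptake, Micu3, stood at 13.7 ± 3.37 in rolling and 6.72 ± 1.19 in stretching libraries (SD, n = 3 each) and did not pass (limma adjusted p 0.066). It passed in 1 of 17 settings, the one without rolling 3 (limma adjusted p 0.044).

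Among calmodulin, its kinases and calcineurin, 6 of 13 tested genes rose and 4 fell in rolling, against 37.8% and 37.4% of all tested genes. Phka1, a regulatory subunit of the calcium-dependent phosphorylase kinase, stood at 383 ± 218 in rolling and 3.25 ± 1.26 in stretching libraries (SD, n = 3 each; log2 fold change 6.39, SE 0.48; adjusted p 3.6e-06 by limma). The kinase Camk1 rose by 5.66 on the log2 scale (SE 0.70), and by 5.05 and 6.40 without stretching 2 and 3. Mylk2, in mouse the myosin light chain kinase of skeletal muscle, had no read in rolling and 91 in stretching and was at least 39.0-fold lower.

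**Figure D5:**
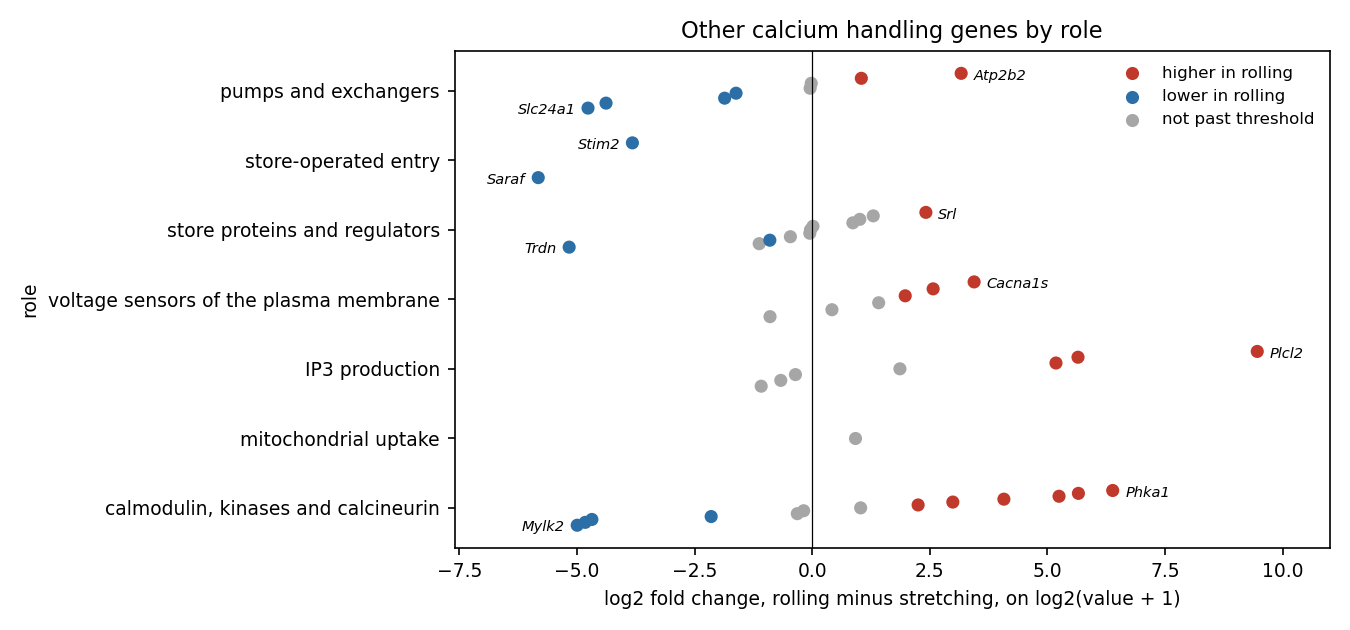
Log2 fold change (rolling minus stretching, from log2 of the value plus 1) of the 48 tested calcium handling genes outside the pumps, release channels and Camk2d, one row per role. Red points are higher in rolling, blue lower and grey not past the limma threshold, and the outermost called genes of each row are named. Higher and lower calls occur together in 3 of the 7 rows, the voltage sensors and IP3 production hold higher calls alone, and store-operated entry holds lower calls alone. The rows hold 1 to 13 genes, and 37.8% of all tested genes were higher and 37.4% lower.

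Because no tissue is named, markers of muscle and neurons were read beside these genes. Of 28 muscle markers, 20 had reads, and their summed level was 16300 to 70586 in rolling and 12027 to 15169 in stretching, without overlap (exact two-sided permutation p 0.1, the smallest possible). This sum is mostly skeletal and cardiac actin, and the list did not move one way, with 3 of its 7 tested members higher, 1 lower and 3 not past the threshold. Acta1 stood at 25001 ± 13205 in rolling and 4086 ± 853 in stretching libraries (SD, n = 3 each), whereas the myosin heavy chain Myh6 had 33 reads in rolling and 4405 in stretching, and Actc1 was not called (log2 fold change -0.11). The markers Tnnt1, Tnnt2, Tnni1, Tnni2, Tnni3, Tnnc1, Mybpc2 and Ckm had no read in any library. All 19 neuron markers had reads, and their sum was 710 to 1290 in rolling and 91.0 to 108 in stretching (exact two-sided permutation p 0.1). In rolling this sum is mostly Unc13a and Tubb3, the only 2 that were tested, and both were higher. Unc13a averaged 760 in rolling and 2.17 in stretching, and Tubb3 185 and 51.5. The other 17 had a mean level under 10. Genes specific to vertebrate tissues, such as the milk protein Csn2, also stood apart, with a sum of 4412 to 8412 in rolling and 253 to 284 in stretching, and 14 of those 16 had reads, all but the haemoglobins Hba-a1 and Hbb-bt. In rolling the vertebrate sum is mostly Csn2, at a mean of 6248 and without a read in stretching. Of the 6 tested genes of that list, 4 were higher and 2 lower. Atp2a1, the IP3 receptors and Camk2d differed in the direction of these sums, while Atp2a2 differed the other way. The part of the summed levels in these differences was not tested. In whole tissue, fewer cells of a type and less RNA per cell cannot be told apart.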

How the data were processed

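RNA of 6 samples was sequenced, 3 rolling and 3 stretching. The submitters' processing notes name BWA, DESeq2 and mm10, without versions or roles. The deposited signal of a gene is its reads divided by a size factor per library; per the file headers, the authors' table also gives each gene's log2 fold change, standard error, Wald statistic (a score) and p-values. Columns headed curl and strait were taken as rolling and stretching by meaning. Taking the smallest positive value of a column as 1 read gave whole reads for 100% of values (largest deviation 1.0e-09). No 2 libraries of a group were alike within sampling noise.

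Genes with a mean of at least 10 were tested two-sided on log2(value + 1) with limma 3.58.1 in R 4.3.3, its trend option on; the log2(value + 1) scale understates changes of low genes. Family sums and shares were compared by exact permutation. Ratios of reads use the size factors and an exact binomial interval (scipy 1.17.1). The fit was tested on simulated data. The choices varied were the pseudocount (0.5 and 8), the filter (none, or a minimum mean of 100), TMM scaling, scaling to library totals with and without the top 20 genes, quantile normalization, edgeR 4.0.16 and DESeq2 1.42.0 on the recovered reads, the replicate number as a block, and leaving out each library.

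The 10 genes and all lists were chosen with earlier results of these data known. Of the other calcium genes, those named are the 2 with the highest mean and up to 2 with the smallest adjusted p per role, and the nearest 3 profiles are named for Atp2a1, Atp2a2 and Camk2d, with unnamed gene models skipped; 1 of these is not reported here. The paralogues of Camk2d and the untested genes among the other observations were chosen after their values were seen.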

Additional observations from a re-analysis of the deposited data

How the results depend on the processing

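Under every alternative run, Atp2a1, Atp2a2 and Camk2d kept their direction and their call where tested, except that Camk2d was not tested at a minimum mean of 100. Their log2 fold changes ranged from 6.52 to 8.90, -3.73 to -3.06 and 2.44 to 4.07, the lowest sizes of Atp2a1 and Camk2d with a pseudocount of 8. Of the 7 tested among the 10 genes, 5 were called, against 75.2% of all tested genes. At a minimum mean of 100, 2 of 2 were called, against 87.9% of all tested genes. When 1 library was left out, 3 to 5 of 7 were called, against 70.4% to 73.7%. Without a filter 4 of 9 were called, against 31.6%, and with DESeq2 4 of 9, against 37.2%. Of the other calcium genes 27 of 48 were called, and 4 of 6 at a minimum mean of 100, against the same 75.2% and 87.9%. With 1 library left out, 25 to 29 of these 48 were called, against 70.4% to 73.7%. Without a filter 39 of 131 of them were called, against 31.6% of all genes, and with DESeq2 31 of 95, against 37.2%. The ryanodine receptor sum changed sign with TMM scaling (-0.036) and scaling to library totals (-0.12), and ranged from -0.068 to 0.15 when 1 library was left out. Hspa5, at 0.02, was -0.075 with TMM scaling, -0.074 with edgeR and -0.17 with library totals, and ranged from -0.19 to 0.21 when 1 library was left out, below 0 without rolling 1, stretching 1 (-0.037) or stretching 2 (-0.0036). The call of Itpr2 was lost without a filter (adjusted p 0.064), with TMM (0.061), library totals (0.18), totals without the top 20 genes (0.064) and DESeq2 (0.084), and that of Atp2b1 without a filter (0.056), with library totals (0.30), edgeR (0.059) and DESeq2 (0.056). The cause was not tested.

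Samples with the same replicate number did not visibly deviate together (correlations of deviations from the group means 0.021, -0.0066 and 0.0087). The labels do not say what the number stands for, and such correlations cannot show that nothing else was shared. With the replicate block, 5 of the 7 tested among the 10 genes were called. Of the other calcium genes 27 of 48 were called with it, against 75.4% of all tested genes. The log2 difference of the IP3 receptor sum was 1.60 with an exact sign-flip p of 0.25, the smallest that 3 pairs allow.

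Depth limits the values of Atp2a3, Ryr1 and Itpr3 and the makeup of the IP3 receptors, and the number of uncounted reads is not known.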

Other observations

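Of the other calcium genes, 83 had reads but a mean level under 10 and were not tested. Some of them, looked up after their values were seen, are close partners of the pumps and channels. Phospholamban, Pln, a small inhibitor of SERCA in mouse heart, had 8 reads in rolling and 42 in stretching, a depth-adjusted ratio of 0.148 (95% counting interval 0.0601 to 0.320). Its relative sarcolipin, Sln, had none in any library. The store sensor Stim1 had 32 reads in rolling and 2 in stretching, or a ratio of 12.5 (3.18 to 107), whereas Stim2, tested above, had 6 and 104. Orai3, a channel that Stim proteins open in mammals, had 6 reads in rolling and 46 in stretching, or a ratio of 0.102 (0.0354 to 0.238). Plcg2, a phospholipase that makes IP3, had 63 reads in rolling and 3 in stretching, or a ratio of 16.4 (5.35 to 81.4). These intervals cover counting error only and leave out the spread between libraries.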
